A study of Homo sapiens with 18 samples.

Results

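The 33 genes described here encode enzymes of cholesterol and fatty acid synthesis, the proteins that sense sterols and switch these enzymes on, a sterol carrier and the exporters of cholesterol. They were taken by name from a fixed list of sterol and lipid genes, and all 33 were found among the 58302 genes of the expression tables. By role they fall into 8 genes from acetyl-CoA to squalene (the mevalonate pathway), 10 genes from squalene to cholesterol, 5 genes of sterol sensing and transport, 8 genes of fatty acid and glycerolipid synthesis and 2 cholesterol efflux transporters. The transcription factors SREBP-1 and SREBP-2, encoded by SREBF1 and SREBF2, sit in the membrane of the endoplasmic reticulum and are escorted by SCAP to the Golgi for cleavage when sterols are low, whereas INSIG1 holds SCAP back when sterols are plentiful. The released fragments raise transcription of most of the enzymes and of INSIG1 itself. ABCA1 and ABCG1 belong to the opposite arm, since they are switched on by liver X receptors when sterols accumulate. RNA levels were measured here, and neither the cleavage of SREBPs nor any sterol was.

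RNA was sequenced from 3 human lung cancer cell lines, EBC-1, which carries MET amplification, and PC-9 and HCC827, which both carry a deletion in exon 19 of EGFR. In each line, cells with a stable lentiviral shRNA against the tyrosine kinase SYK (shSYK) were compared with negative control cells (nc). There were 6 groups of 3 libraries. A single shRNA clone was used, so loss of SYK and any action of that shRNA on other transcripts cannot be told apart. Nothing states that the 3 libraries of a group came from separate cultures, and the p-values therefore measure only the spread between these libraries.

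Levels are FPKM, fragments scaled by gene length and by a denominator for each library, and between 7920099 and 15729103 reads per library lay on genes. SYK, the targeted gene, was at 15.1, 13.1 and 14.4 FPKM in the nc libraries of EBC-1 and at 7.63, 7.25 and 7.41 in its shSYK libraries. In PC-9, SYK was at 7.31, 6.04 and 6.17 against 2.28, 1.64 and 2.34 FPKM, and in HCC827 at 9.05, 8.45 and 9.74 against 2.46, 3.16 and 3.36. SYK was lower in all 3 lines (log2 fold change -0.85 for EBC-1, -1.29 for PC-9 and -1.34 for HCC827, with limma adjusted p of 0.000271, 0.00733 and 0.000197). The 6 epithelial markers were expressed in all 6 groups. In EBC-1 they summed to between 1930 and 2209 FPKM in nc and between 1413 and 1518 in shSYK, and mitochondrial reads were 2.23% to 2.51% in nc and 1.89% to 1.93% in shSYK libraries, and the part of both in the EBC-1 values below was not tested. Of the markers of other cells, 0 or 1 of 5 leukocyte markers and 1 of 5 fibroblast markers reached a mean of 1 FPKM in each group. Of 3 endothelial markers, PECAM1 and CDH5 reached that mean in PC-9 alone, where the 3 markers summed to between 15.03 and 17.05 FPKM in nc and between 6.62 and 7.91 in shSYK libraries, and VWF was near 0. The part of these markers in the PC-9 values below was not tested. In cell populations, fewer expressing cells and less RNA per cell cannot be told apart.

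In the nc libraries, 19 of the 33 genes had their lowest mean in EBC-1 and 18 had their highest mean in HCC827. The shares over all genes were not computed, so these counts are not read as a trait of the 33. The summed FPKM of all genes also differed, from 2.672e+05 to 2.805e+05 in EBC-1 nc, 2.749e+05 to 3.422e+05 in PC-9 nc and 3.335e+05 to 3.544e+05 in HCC827 nc. The part of these sums in the counts was not tested. The tables of the 3 lines were normalized separately and these levels were not tested between lines. Apart from ABCG1, which is described below, the widest range was that of HMGCS1, which encodes the synthase of hydroxymethylglutaryl-CoA at the entry of the mevalonate pathway. Its nc level was 3.70, 3.59 and 3.93 FPKM in EBC-1, 30.1, 41.0 and 42.6 in PC-9 and 23.1, 23.8 and 18.3 in HCC827, so that the mean of PC-9 was 10.1 times that of EBC-1. INSIG1 averaged 4.94 ± 0.303 FPKM (mean ± SD, n = 3) in EBC-1 but 17.2 ± 2.13 for PC-9 and 33.4 ± 5.39 for HCC827, and no library of one line overlapped those of another. SCD, which encodes stearoyl-CoA desaturase, was at 40.3 ± 1.01, 49.8 ± 4.34 and 182 ± 18.8 FPKM in the same order. In HCC827 it was matched by other enzymes of fatty acid synthesis, with ACLY, which makes cytosolic acetyl-CoA from citrate, at 185 ± 5.92 FPKM and FASN, the fatty acid synthase, at 155 ± 3.51.

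The order differed for the regulators. SREBF1 was highest in HCC827 (75.9 ± 5.77 FPKM, against 35.9 ± 1.39 in EBC-1 and 30.1 ± 8.45 in PC-9), and its levels in EBC-1 and PC-9 overlapped. SREBF2 was lowest in HCC827 (24.6 ± 1.13 FPKM), and its levels in EBC-1 (53.0 ± 3.12) and PC-9 (52.5 ± 6.83) overlapped. SQLE, the squalene epoxidase, was at 28.8 ± 0.849 FPKM in PC-9, 10.8 ± 0.646 in EBC-1 and 8.75 ± 1.07 in HCC827. MVK, the mevalonate kinase, and LPIN1, a phosphatidate phosphatase, had the narrowest ranges, with a highest mean 1.26 and 1.31 times the lowest. Some genes were nearly silent in single lines. ABCG1 had 0 reads in each of the 6 HCC827 libraries, which is under the floor of 3 reads taken as detection, and its levels in EBC-1 nc were 0.154, 0.181 and 0.0970 FPKM. STARD4, a carrier that moves cholesterol through the cytosol, was at 0.255, 0.439 and 0.270 FPKM in PC-9 nc, against a mean of 2.49 in EBC-1 and 2.16 in HCC827.

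**Figure D1:**
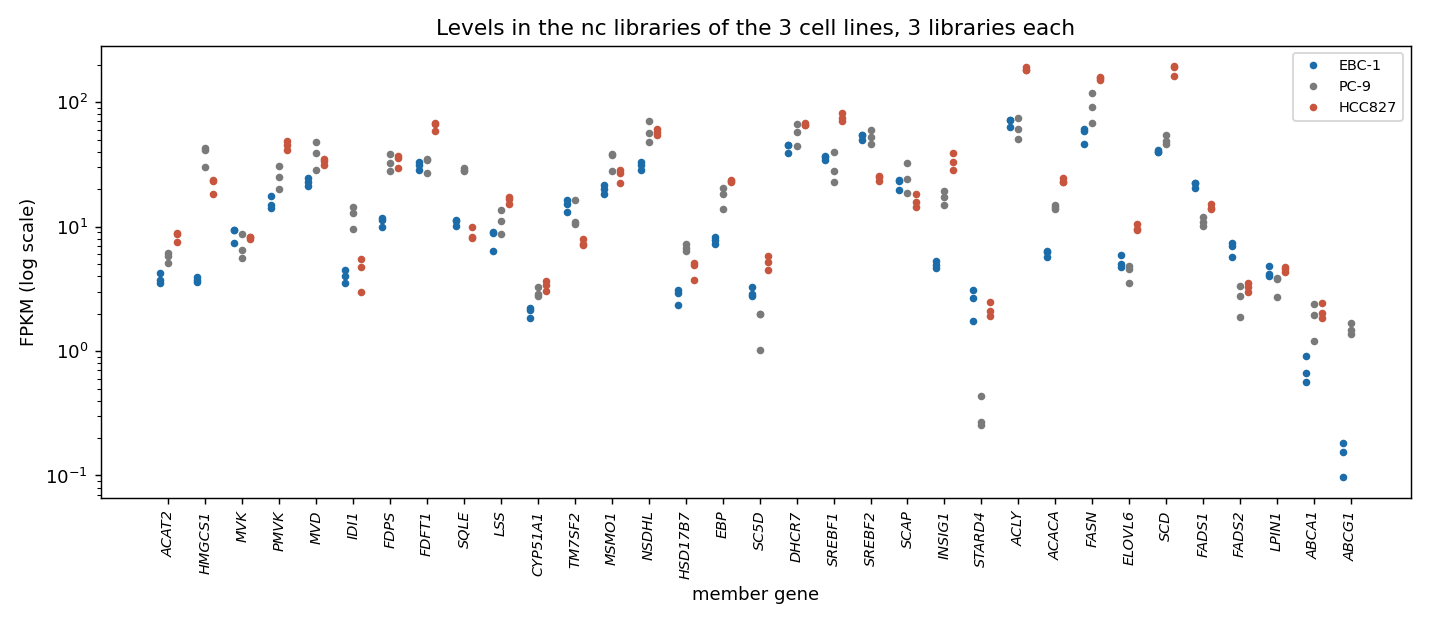
FPKM on a log axis of each gene in the nc libraries, with each point 1 library, colours for the 3 cell lines and genes ordered by role. HMGCS1, INSIG1, SCD and ACACA lie lowest in EBC-1, STARD4 lies lowest in PC-9, and ABCG1 has no point in HCC827 because it had 0 reads there.

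With SYK knocked down, most of the changed genes fell in EBC-1 and rose in HCC827, and none passed the test in PC-9. Of 33 genes, 32 reached the mean of 1 FPKM needed for testing in each line, the exceptions being ABCG1 in EBC-1 and HCC827 and STARD4 in PC-9. In EBC-1, 4 genes (among them ABCA1, which was tested only because its shSYK level was high) were higher and 14 lower in shSYK (limma on log2(FPKM + 1), adjusted p under 0.05), while 44.7% of all tested genes passed in either direction, 23.1% higher and 21.6% lower. Leaving out the first or the third nc library, or any of the shSYK libraries, brought the 4 down to 2. The median log2 fold change of the 32 genes was -0.19 in EBC-1, against 0.0090 over all genes tested, and -0.10 without the third shSYK library. In HCC827, 15 genes were higher and 3 lower, against a background of 38% of all genes in either direction, 17.2% higher and 20.7% lower. Their median log2 fold change was 0.32, against -0.0053 over all genes. In PC-9, limma called 0 of the 32 genes, against 2.09% of all genes tested (0.678% higher and 1.41% lower). By unadjusted values, 6 of the 32 genes had a p under 0.05 in limma (5 higher, 1 lower), as did 1881 of all 12089 genes tested. With limma-voom on reads, 0 of the 32 were called as well. The median log2 fold change of the 32 genes in PC-9 was 0.0048, against 0.0088 over all genes. Without the first nc library of PC-9, 1 gene was higher and 1 lower there and the median was 0.10, and without the second the median was -0.072. The spread was wider in the nc libraries of PC-9, where the median SD of the 32 genes was 0.27 on the log2(FPKM + 1) scale, against 0.083 to 0.11 in the other 5 groups. The level in shSYK libraries lay entirely above or below that in nc libraries for 19 of 32 genes in EBC-1 (56.9% of all genes), 8 in PC-9 (23.7%) and 23 in HCC827 (52.3%).

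**Figure D2:**
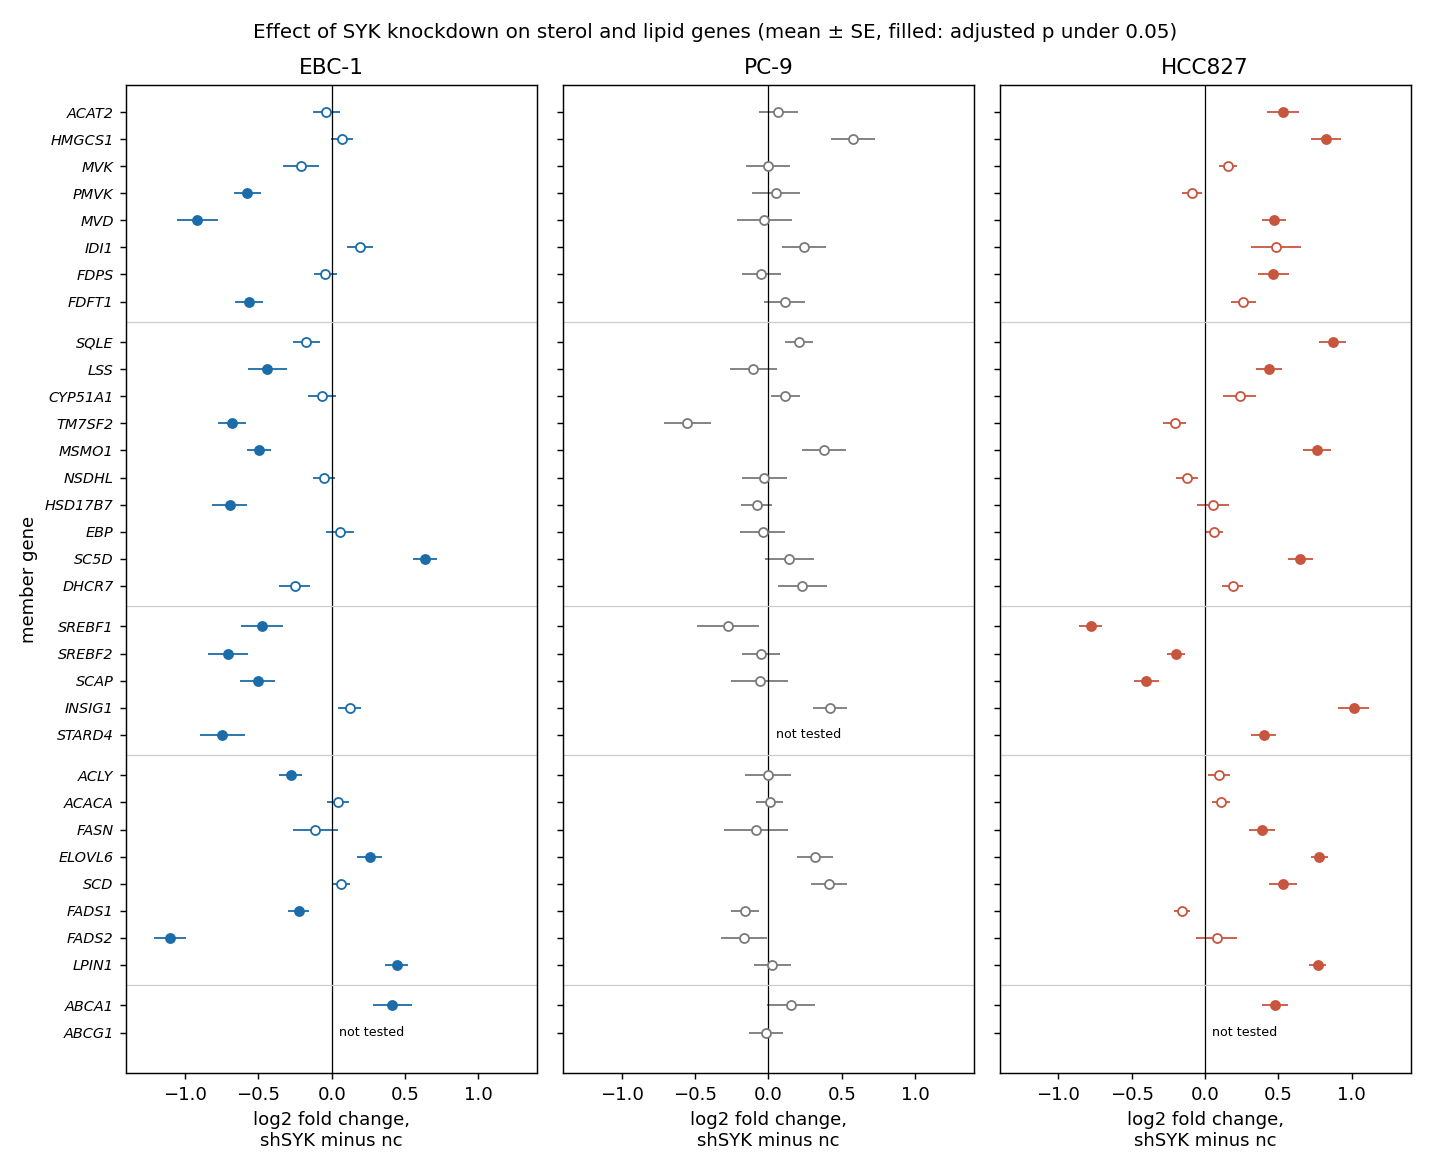
Log2 fold change of shSYK minus nc on the log2(FPKM + 1) scale with its standard error for each gene, in 1 panel per cell line, with horizontal lines between the 5 roles and filled points for an adjusted p under 0.05. EBC-1 shows 14 filled points below 0 and 4 above, PC-9 shows none, and HCC827 shows 15 above 0 and 3 below.

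The genes of sterol sensing moved apart from each other. SREBF1 and SREBF2, the precursors of the activating factors, and SCAP, their escort, fell in both EBC-1 and HCC827. In EBC-1, SREBF1 went from 36.4, 34.3 and 36.9 FPKM to 27.7, 30.1 and 19.8, and SREBF2 from 54.8, 49.4 and 54.7 to 35.9, 36.0 and 25.2. The groups did not overlap for either gene, with the third shSYK library lowest for both (log2 fold change -0.48 ± 0.14 (SE), adjusted p = 0.0293, and -0.71 ± 0.14, adjusted p = 0.00534, limma). The SREBF1 call in EBC-1 was lost under 5 of 16 alternative settings, among them leaving out the first or the third nc library. In HCC827, SREBF1 went from 71.0, 74.4 and 82.3 FPKM to 44.1, 40.1 and 47.2, which was 57.7% of the nc mean (-0.78 ± 0.080, adjusted p = 0.000573, limma). SREBF2 fell less there, from 25.1, 25.4 and 23.3 FPKM to 22.5, 21.0 and 20.4 (-0.20 ± 0.061, adjusted p = 0.0355, limma), and 11 of 16 alternative settings did not call it. SCAP was at 23.4, 19.7 and 23.7 FPKM in EBC-1 nc and at 16.6, 16.8 and 12.9 in shSYK, and in HCC827 at 15.7, 14.3 and 18.1 against 11.8, 11.8 and 12.0, with no overlap in either line. SREBF1 overlaps RAI1 on the other strand, and reads there cannot be told apart. In PC-9 the 3 genes overlapped between groups, with SCAP at 32.4, 18.7 and 24.3 FPKM in nc and 24.2, 20.8 and 25.9 in shSYK. SREBF1 was at 39.4, 22.9 and 28.0 FPKM in nc and 24.2, 20.04 and 28.9 in shSYK, and SREBF2 at 59.3, 45.7 and 52.6 against 48.4, 48.2 and 54.9.

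INSIG1, the sterol-dependent anchor of SCAP, had the largest rise of the 33 genes. In HCC827 it went from 33.0, 39.0 and 28.3 FPKM to 68.5, 69.1 and 66.0, or 203% of the nc mean (log2 fold change 1.01 ± 0.11 (SE), adjusted p = 0.000603, limma). The 3 shSYK libraries all lay above the highest nc library. In PC-9, INSIG1 was at 14.9, 17.4 and 19.2 FPKM in nc and 22.6, 22.6 and 24.3 in shSYK, with no overlap but an adjusted p of 0.136 (limma). Groups did not overlap for 23.7% of all genes tested in PC-9, a share to set beside each such gene below. In EBC-1 the INSIG1 groups overlapped, at 5.25, 4.64 and 4.92 against 5.30, 5.83 and 5.24 FPKM. STARD4 changed in opposite directions in the lines where it was expressed. It fell in EBC-1 from 2.65, 3.08 and 1.75 FPKM to 1.03, 1.10 and 1.03 (-0.75 ± 0.15, adjusted p = 0.00659, limma) and rose in HCC827 from 2.09, 2.49 and 1.91 to 3.22, 3.09 and 3.16 (0.40 ± 0.087, adjusted p = 0.0105, limma). Its shSYK levels in PC-9 were 0.364, 0.292 and 0.225 FPKM.

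SREBPs bind a short element in the promoters of their targets, and the promoters of the 33 genes were searched for it. RefSeq promoters, from 250 bases before to 50 bases after the annotated start (GRCh38.p14), were matched for 28 genes, and both strands were searched. For these 28 genes the first listed promoter of each was taken, whereas the 35116 promoters below are all that were listed. Shares among the 28 and among all promoters therefore come from unlike sets, and their difference was not tested. The core of 8 letters, CACNCCAC, was found in 5 of the 28 (INSIG1, ABCA1, SCD, SC5D and SREBF2), or 17.9%, and in 5.87% of all 35116 promoters. The longer form TCACNCCAC, which contains the core, was found in 1 of the 28, SREBF2, and in 1.13% of all. In SC5D the core lay at base 14 after the start. In the other 4 genes it lay upstream of the start together with 11 bases on each side, and these 4 windows are given below. They show the core in capitals, with 11 bases on each side, along the strand of the gene. In INSIG1 and SCD the core lies on the other strand and reads as its reverse complement.
INSIG1 (chr7:155297659-155297688, + strand): gcgggccggcgGTGGCGTGtgcgcacgtca
SCD (chr10:100347108-100347137, + strand): gcagaggccggGTGGTGTGgtgtcggtgtc
SREBF2 (chr22:41832962-41832991, + strand): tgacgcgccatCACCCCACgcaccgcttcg
ABCA1 (chr9:104928365-104928394, - strand): ccctccaccccCACCCCACccacctccccc
The match begins 208 bases before the start in INSIG1, 114 in SCD, 132 in SREBF2 and 228 in ABCA1. Of the 5 genes with the core, INSIG1, SCD, SC5D and ABCA1 were called higher in HCC827, as were 15 of the 32 tested genes. SREBF2 was called lower there, a call lost under 11 of 16 alternative settings. In EBC-1, SC5D and ABCA1 were called higher, ABCA1 with the limit given above, and SREBF2 lower. INSIG1 and SCD were not called in EBC-1, and none of the 5 was called in PC-9. A relation between the core and these directions was not tested. CCAAT, the box of the factor NF-Y, was found in 17 of the 28 promoters (60.7%, against 34.6% of all promoters), and GGGCGG, the box of Sp1 and its relatives, in 26 (92.9%, against 45% of all). The E-box CACGTG was found in 5 (17.9%, against 7.26%). A match of letters does not show that a factor is bound, and binding was not measured.

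In the mevalonate pathway, 3 of 8 genes fell in EBC-1 and 4 of 8 rose in HCC827, and 1 gene, MVD, did both. The shares called, 37.5% and 50%, stand against 44.7% and 38% of all tested genes in either direction. MVD encodes the decarboxylase that yields isopentenyl diphosphate. Its level went from 24.5, 21.2 and 22.9 FPKM to 12.2, 14.0 and 9.21 in EBC-1, 51.6% of the nc mean (log2 fold change -0.92 ± 0.14 (SE), adjusted p = 0.00204, limma). In HCC827 it went from 34.8, 33.6 and 31.2 FPKM to 52.2, 43.9 and 43.4, 140% of the nc mean (0.47 ± 0.083, adjusted p = 0.00465, limma). The PC-9 groups overlapped, at 48.2, 28.3 and 39.0 against 36.3, 34.7 and 39.8 FPKM. The other falls in EBC-1 were those of PMVK, the phosphomevalonate kinase (from 15.5 ± 1.84 to 10.1 ± 0.524 FPKM), and FDFT1, the squalene synthase (from 31.0 ± 2.52 to 20.6 ± 2.07).

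HMGCS1 rose in HCC827 from 23.1, 23.8 and 18.3 FPKM to 41.5, 38.6 and 36.8, 179% of the nc mean (log2 fold change 0.82 ± 0.10, adjusted p = 0.00119, limma). It had the most positive fold change of the 33 genes in PC-9, from 30.1, 41.0 and 42.6 FPKM to 53.4, 59.0 and 57.0 with no overlap, but did not pass there (0.58 ± 0.15, adjusted p = 0.111, limma). In EBC-1, its shSYK levels of 3.95, 4.22 and 3.74 FPKM overlapped those of nc. ACAT2, the cytosolic thiolase that makes acetoacetyl-CoA, rose in HCC827 from 8.37 ± 0.753 to 12.6 ± 1.91 FPKM, and FDPS, the farnesyl diphosphate synthase, from 36.6, 35.8 and 29.8 to 53.3, 45.4 and 43.5. FDPS overlapped between groups in EBC-1, at 11.7, 9.84 and 11.3 against 10.6, 10.8 and 10.2 FPKM, and in PC-9, at 38.4, 28.0 and 32.4 against 29.8, 31.7 and 33.3. FDFT1 was just outside the threshold in HCC827, at 64.5 ± 4.79 against 77.7 ± 7.67 FPKM (adjusted p = 0.05004, limma). IDI1, the isopentenyl diphosphate isomerase, passed in no line in the main fit, and its groups did not overlap in EBC-1 or HCC827. The 8 genes together summed to between 92.4 and 105 FPKM in EBC-1 nc and between 66.4 and 77.6 in shSYK, and to between 206 and 228 FPKM in HCC827 nc and between 261 and 305 in shSYK. ACAT2 overlaps SOD2 and TCP1 and MVK overlaps MMAB on the other strand, and without a stated strand setting their reads cannot be told apart there.

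From squalene to cholesterol, 4 of 10 genes fell and 1 rose in EBC-1, and 4 rose in HCC827. The shares called, 50% and 40%, were near those of all tested genes, 44.7% and 38%. SQLE, which catalyses a rate-limiting step, rose in HCC827 from 8.23, 9.99 and 8.04 FPKM to 17.9, 17.0 and 15.4, 192% of the nc mean (log2 fold change 0.87 ± 0.092, adjusted p = 0.000621, limma). In PC-9, 23.7% of all tested genes had groups that lay apart. Those of SQLE did too, at 28.6, 28.1 and 29.7 against 32.2, 33.1 and 34.9 FPKM, without passing (adjusted p = 0.357, limma). In EBC-1 they overlapped, at 11.4, 10.1 and 10.99 against 10.6, 9.47 and 8.45 FPKM.

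MSMO1, the methylsterol monooxygenase, fell in EBC-1 from 19.99, 21.8 and 18.2 FPKM to 14.5, 13.8 and 13.3 (log2 fold change -0.50 ± 0.081, adjusted p = 0.00281, limma). It rose in HCC827 from 27.1, 28.3 and 22.5 FPKM to 45.9, 46.7 and 41.3 (0.76 ± 0.093, adjusted p = 0.00114, limma). In PC-9 it was at 27.9, 37.6 and 38.1 FPKM in nc and 41.9, 50.4 and 42.7 in shSYK, apart but not called (adjusted p = 0.283, limma). LSS, the lanosterol synthase, had the same opposite pattern, from 8.10 ± 1.49 to 5.67 ± 0.563 FPKM in EBC-1 and from 16.3 ± 1.10 to 22.4 ± 2.55 in HCC827, and its call in EBC-1 was lost under 7 of 16 alternative settings. SC5D, the lathosterol oxidase, rose in both lines, from 2.78, 3.24 and 2.86 FPKM to 5.16, 4.81 and 5.48 in EBC-1 and from 5.22, 5.83 and 4.52 to 8.58, 8.60 and 8.85 in HCC827 (0.64 ± 0.083 and 0.65 ± 0.083, adjusted p of 0.00114 and 0.00135, limma). Its PC-9 groups overlapped, at 1.02, 1.98 and 1.999 against 1.96, 1.89 and 1.84 FPKM.

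HSD17B7, a ketosteroid reductase, and TM7SF2, a sterol reductase, fell in EBC-1, to 48% and 59.8% of their nc means (log2 fold changes of -0.70 and -0.68). In PC-9, TM7SF2 had the most negative fold change of the 33 genes (-0.55 ± 0.16, adjusted p = 0.151, limma), at 16.2, 10.5 and 10.8 FPKM in nc against 7.93, 8.06 and 8.12 in shSYK. In the main fit, 4 genes of this role passed in no line. They were CYP51A1, the lanosterol demethylase, NSDHL, a sterol dehydrogenase, EBP, a sterol isomerase, and DHCR7, which makes cholesterol from its direct precursor. With the dependence on GC content and gene length removed, as given below, EBP was called in EBC-1 and HCC827 and DHCR7 in HCC827. DHCR7 was the most abundant of the 4 in HCC827, at 66.1 ± 2.04 FPKM in nc and 75.7 ± 6.65 in shSYK.

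In fatty acid and glycerolipid synthesis, 2 of 8 genes rose and 3 fell in EBC-1, and 4 rose in HCC827. The shares called, 62.5% and 50%, stand against 44.7% and 38% of all tested genes in either direction. FADS2, a desaturase of polyunsaturated fatty acids, had the largest fall of the 33 genes, from 7.35, 5.72 and 6.997 FPKM to 2.84, 2.70 and 2.19 in EBC-1, 38.5% of the nc mean (log2 fold change -1.10 ± 0.11, adjusted p = 0.000461, limma). The groups overlapped in the other lines, at 3.32, 1.88 and 2.77 against 2.02, 2.23 and 2.40 FPKM in PC-9 and 3.29, 3.53 and 3.01 against 4.64, 3.21 and 2.86 in HCC827. FADS2 overlaps its neighbour FADS1 on the other strand and FEN1 on its own strand on chromosome 11, so its reads could be shared with theirs. FADS1, also a desaturase, fell in EBC-1 from 21.7 ± 1.14 to 18.4 ± 0.843 FPKM (adjusted p = 0.0337, limma), as did ACLY from 69.2 ± 4.995 to 56.8 ± 3.29 (adjusted p = 0.0234, limma), and these calls were lost under 9 and 8 of 16 alternative settings.

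LPIN1 rose in EBC-1 from 4.81, 4.02 and 4.13 FPKM to 6.07, 6.28 and 6.31 (log2 fold change 0.44 ± 0.079, adjusted p = 0.00397, limma) and in HCC827 from 4.54, 4.70 and 4.32 to 8.30, 8.66 and 8.24 (0.77 ± 0.058, adjusted p = 0.00021, limma). In PC-9 it was at 2.71, 3.89 and 3.76 against 3.69, 3.49 and 3.34 FPKM, which overlapped. ELOVL6, which lengthens saturated fatty acids, rose in HCC827 from 9.84 ± 0.607 to 17.6 ± 0.0897 FPKM (0.78 ± 0.058, adjusted p = 0.000202, limma). Its rise in EBC-1, from 5.22 ± 0.625 to 6.43 ± 0.144 FPKM (adjusted p = 0.0421, limma), was lost under 9 of 16 alternative settings. SCD rose in HCC827 from 193, 193 and 161 FPKM to 284, 268 and 240 (0.53 ± 0.095, adjusted p = 0.00488, limma). The PC-9 groups of SCD lay apart, at 48.5, 46.2 and 54.6 against 60.5, 66.6 and 72.9 FPKM, without passing (adjusted p = 0.151, limma), and those of EBC-1 overlapped, at 41.4, 39.9 and 39.5 against 42.4, 43.3 and 40.5. FASN was called in HCC827 only, where it rose from 158, 155 and 151 FPKM to 231, 199 and 181 (0.39 ± 0.089, adjusted p = 0.0124, limma, and 0.129 in a fit of all 18 libraries). It was at 58.9, 45.7 and 61.1 against 57.6, 55.1 and 41.0 FPKM in EBC-1 and at 118, 67.8 and 91.6 against 85.2, 70.9 and 102 in PC-9. ACACA, the acetyl-CoA carboxylase, passed in no line in the main fit. Its shSYK means were at 104%, 101% and 108% of nc in EBC-1, PC-9 and HCC827.

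The exporter ABCA1 rose in HCC827, from 2.45, 2.02 and 1.83 FPKM to 3.33, 3.36 and 3.21 with no overlap (log2 fold change 0.48 ± 0.091, adjusted p = 0.00617, limma). In EBC-1 it was at 0.671, 0.921 and 0.568 FPKM in nc and 1.10, 1.24 and 1.52 in shSYK (0.41 ± 0.13, adjusted p = 0.0383, limma). It reached the mean of 1 FPKM in EBC-1 only through the shSYK libraries, and left the test when any of them was dropped. That call was also lost under 6 of 12 alternative settings. In PC-9, ABCA1 was at 1.19, 2.39 and 1.96 against 2.15, 2.01 and 2.20 FPKM. ABCG1 was tested in PC-9 only, at 1.48, 1.36 and 1.68 FPKM in nc and 1.65, 1.47 and 1.304 in shSYK, which overlapped. Its shSYK levels in EBC-1 were 0.150, 0.126 and 0.120 FPKM.

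**Figure D3:**
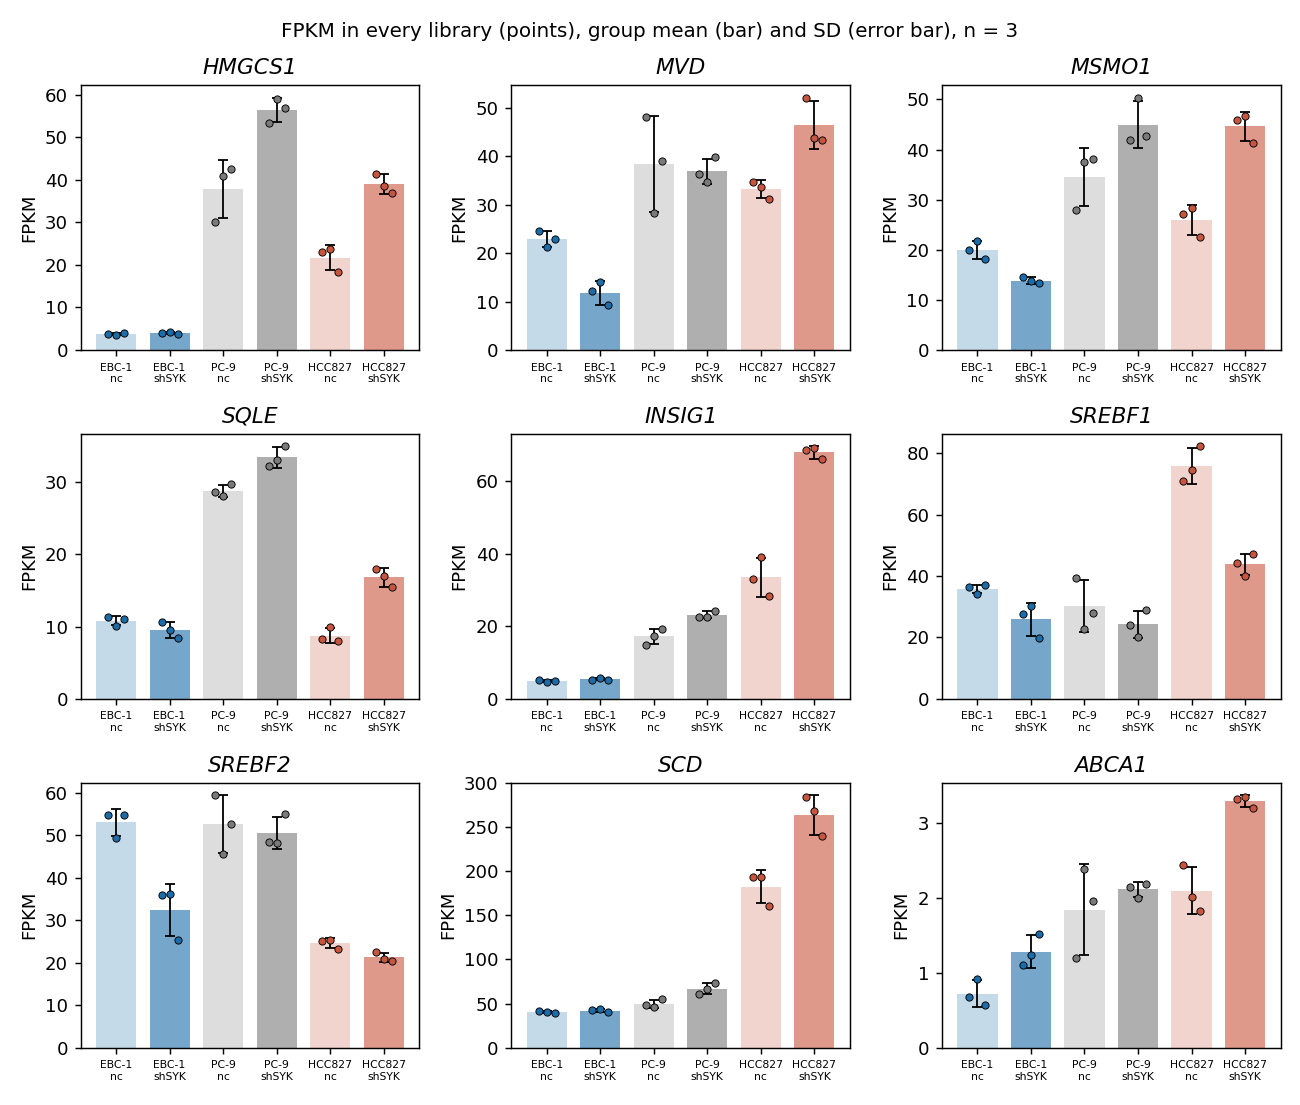
FPKM of 9 of the genes in every library, with points for single libraries, bars for group means and error bars for 1 SD (n = 3). In HCC827 the shSYK points of HMGCS1, MVD, MSMO1, SQLE, INSIG1, SCD and ABCA1 lie above all nc points and those of SREBF1 and SREBF2 below them, and in EBC-1 those of MVD, MSMO1, SREBF1 and SREBF2 lie below.

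Set side by side, the calls of EBC-1 and HCC827 took the same direction for 7 genes, or 6 without ABCA1, and opposite directions for 4. ELOVL6, LPIN1 and SC5D, and ABCA1 with the limit given above, were higher in both lines, and SCAP, SREBF1 and SREBF2 were lower in both. LSS, MSMO1, MVD and STARD4 were lower in EBC-1 and higher in HCC827. Some of these calls depended on the processing. In EBC-1, those of ELOVL6, LSS and SREBF1 were lost under 9, 7 and 5 of 16 alternative settings. In HCC827, those of SREBF2 and SCAP were lost under 11 and 2 of 16, and that of STARD4 under 1 of 15. A further 7 genes passed in EBC-1 alone (ACLY, FADS1, FADS2, FDFT1, HSD17B7, PMVK and TM7SF2, all lower), 7 in HCC827 alone (ACAT2, FASN, FDPS, HMGCS1, INSIG1, SCD and SQLE, all higher), and 7 in neither. Of the 7 genes called in HCC827 alone, the difference of effects between the lines passed the test described next for all but FASN, and of the 7 called in EBC-1 alone it passed for FADS2, FDFT1 and HSD17B7.

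The effects were then compared between lines in a fit of all 18 libraries, which tested the difference of the 2 log2 fold changes. The 3 comparisons share libraries and are not independent of each other. The effect differed between EBC-1 and HCC827 for 14 of 32 genes, all lower in EBC-1, against 19.8% of all genes tested. The largest differences were those of MVD (-1.39 ± 0.22 (SE), adjusted p = 0.000515, limma), MSMO1 (-1.26 ± 0.17, adjusted p = 8.87e-05), FADS2 (-1.18 ± 0.21, adjusted p = 0.00124) and STARD4 (-1.14 ± 0.17, adjusted p = 0.000223), all by limma. The other 10 were SQLE, INSIG1, LSS, FDFT1, HMGCS1, HSD17B7, ACAT2, ELOVL6, FDPS and SCD, from -1.05 for SQLE to -0.47 for SCD. For SREBF1, SREBF2 and SCAP, the difference between these lines did not pass.

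Between EBC-1 and PC-9, the effect differed for 10 of 32 genes, against 18.5% of all genes. It was lower in EBC-1 for 9 of them, led by FADS2, MVD and MSMO1, and higher for LPIN1 (0.42 ± 0.13, adjusted p = 0.0372, limma). The 9 include STARD4 (-0.72), which was under the filter in PC-9, with 12 to 29 reads per library. That value is close to the change in EBC-1 alone (-0.75), and the difference was lost with limma-voom on reads (adjusted p = 0.163). Without the first nc library of PC-9 the count rose from 10 to 16. Between PC-9 and HCC827, 5 of 32 genes differed, against 9.76% of all genes. The 5 were LPIN1 (-0.74 ± 0.13, adjusted p = 0.000928, limma), SQLE (-0.67 ± 0.13), INSIG1 (-0.59 ± 0.14), FDPS (-0.52 ± 0.16) and ELOVL6 (-0.46 ± 0.13), all lower in PC-9. That count was 11 without the first nc library of PC-9, 8 without the second, and 3 without the third, without the first shSYK library of PC-9 or without the third nc library of HCC827.

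**Figure D4:**
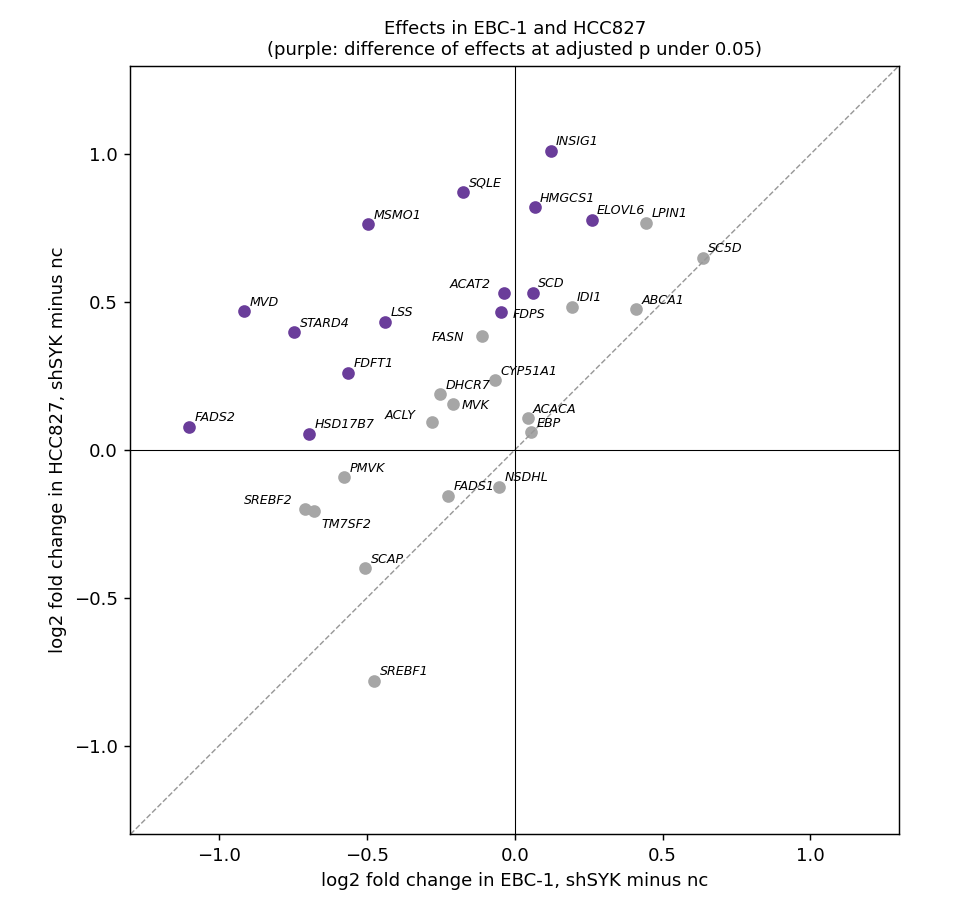
Log2 fold change of shSYK minus nc in EBC-1 (x axis) and HCC827 (y axis) for the 32 genes tested in both, with the dashed line of equal effects and purple points where the difference of effects had an adjusted p under 0.05. All 14 purple points lie above the line, MVD, MSMO1, STARD4 and LSS lie at the upper left with FDFT1 and others, and SREBF1, SREBF2 and SCAP lie at the lower left.

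The fold changes moved with the base composition of the genes. Across the 32 tested genes, Pearson's r between the fold change and the GC content of the longest transcript was -0.44 for EBC-1, -0.68 for PC-9 and -0.58 for HCC827, against -0.46, -0.26 and -0.32 across all genes. These are correlations across genes of the same libraries, and genes are not independent replicates. In EBC-1 the median GC content was 57.6% for the genes that fell and 43.5% for those that rose, and in HCC827 it was 61.7% and 45.5%. After removal, within each library, of the dependence on GC content and gene length, 11 of the 14 falls in EBC-1 kept their call, the exceptions being LSS, SREBF1 and PMVK, and 14 of the 15 rises in HCC827 kept theirs, the exception being STARD4. Of the 4 rises in EBC-1, SC5D and LPIN1 kept their call, ABCA1 did not (adjusted p = 0.0553, limma), and ELOVL6 came to -0.0134. Of the 3 falls in HCC827, SREBF1 kept its call, and SCAP (adjusted p = 0.0548) and SREBF2 (adjusted p = 0.343) did not, by limma. The removal also added calls by limma. In EBC-1, FDPS (0.17, adjusted p = 0.0350) and EBP (0.27, adjusted p = 0.0290) became higher. In HCC827, MVK (0.30, adjusted p = 0.00958), DHCR7 (0.36, adjusted p = 0.00754) and EBP (0.22, adjusted p = 0.0287) became higher and FADS1 (-0.17, adjusted p = 0.0272) lower. In PC-9, the removal left HMGCS1 (0.48, adjusted p = 0.020) and SCD (0.40, adjusted p = 0.0426) higher and TM7SF2 (-0.44, adjusted p = 0.0298) lower by limma. It also raised the calls over all PC-9 genes, to 915 of 12040 from 253 of 12089. Equal library sums also moved the level of all genes in EBC-1, whose median log2 fold change became 0.12, and under this scaling the 32 genes had a median of -0.074 there and the calls of LSS, SREBF1, ACLY and FADS1 were lost.

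**Figure D5:**
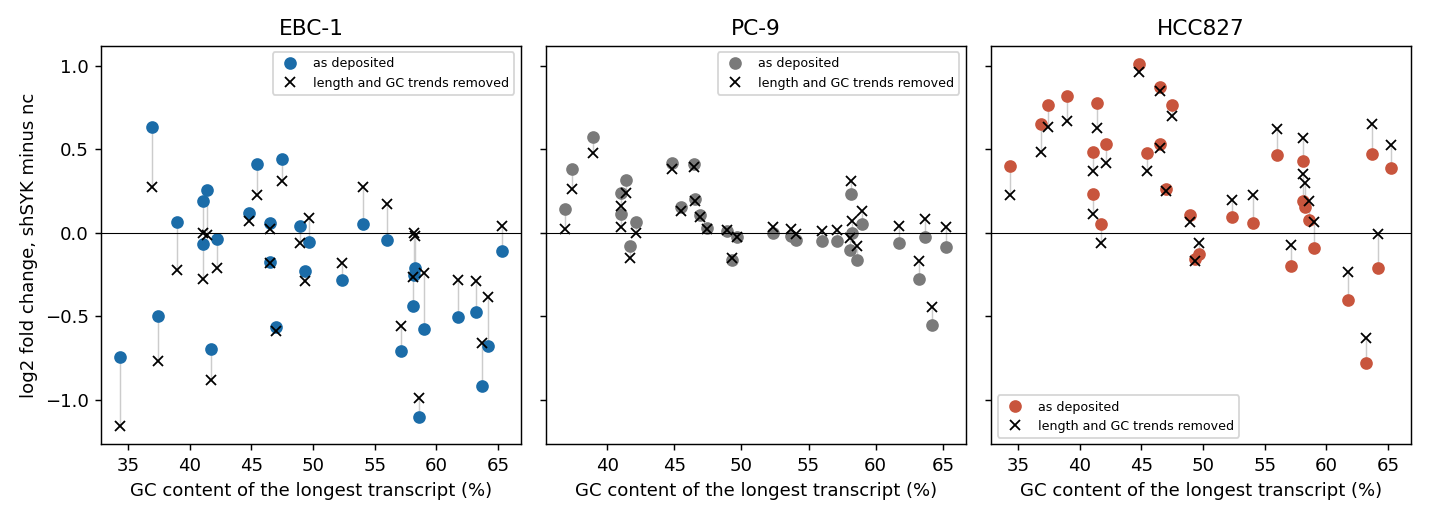
Log2 fold change of shSYK minus nc against the GC content of each gene's longest transcript in percent, for the 32 tested genes in each cell line, as deposited (circles) and with the length and GC trends removed (crosses), joined by grey lines. The crosses lie mostly below the circles at low GC content and above them at high GC content, and most HCC827 crosses remain above 0.

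The other genes of the pathway, 81 in all, did not share one direction. In EBC-1, 17 of 71 tested genes were higher and 18 lower, in PC-9 1 of 70 was higher, and in HCC827 17 of 72 were higher and 14 lower. The shares called, 49.3%, 1.43% and 43.1%, were near those of all tested genes, 44.7%, 2.09% and 38%. The 10 genes of SREBP processing and turnover had 6 higher and 2 lower in EBC-1 (80% called). In HCC827 they had 3 higher and 1 lower (40% called, near the share of all genes). MBTPS2, the second protease that releases SREBPs, rose in EBC-1 from 3.93 ± 0.521 to 6.89 ± 0.209 FPKM (log2 fold change 0.68, adjusted p = 0.00117, limma). Of 13 tested genes of fatty acid oxidation, the breakdown of fatty acids, 6 were lower and 0 higher in EBC-1 (46.2% called, near the share of all genes). In HCC827, 3 of 12 were lower and 1 higher (33.3% called, also near that share). HSD17B12, which works in fatty acid elongation, rose in EBC-1 from 2.81 ± 0.280 to 5.23 ± 0.165 FPKM. SCD5, a second stearoyl-CoA desaturase, fell in EBC-1 from 7.25 ± 0.486 to 3.69 ± 0.577 FPKM and was the gene that rose in PC-9, from 12.4 ± 1.05 to 22.5 ± 1.39. APOE, the apolipoprotein of sterol transport, had the largest fall in EBC-1, from 34.5 ± 3.77 to 10.1 ± 0.623 FPKM (-1.67, adjusted p = 5.48e-05, limma). It was listed with the other genes of the liver X receptor pathway, the arm of ABCA1. Of 7 of these tested in EBC-1, 1 was higher and 1 lower (28.6% called, against 44.7% of all genes). In HCC827, 0 of 7 were higher and 1 lower (14.3% called, against 38%), and in PC-9, 0 of 5 were called. In HCC827, ELOVL7, an elongase, rose from 5.67 ± 0.199 to 11.6 ± 0.798 FPKM and LIPA, the lysosomal lipase that frees cholesterol from its esters, from 10.5 ± 0.419 to 17.2 ± 0.329. GPAM, which starts glycerolipid synthesis, stood there at 2.02 ± 0.159 FPKM in nc and 0.704 ± 0.0805 in shSYK and passed the filter only through its nc level, and TECR, an enzyme of fatty acid elongation, fell from 27.3 ± 1.5 to 16.2 ± 1.58.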

How the data were processed

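RNA was extracted with TRIzol and sequenced on an Illumina HiSeq system, and the study states alignment to hg38. The submitters' processing notes name CASAVA and HISAT2 without versions, and list GRCh37, GRCh38, hg19 and hg38 without a role. The counting program, its strand setting and the annotation are not given in the sources used here. The authors deposited 1 table of FPKM and gene lengths per cell line, with 58302 genes and no counts. FPKM times gene length was a whole multiple of 1 constant per library (100% of values within 0.01 reads), so reads were recovered to give depth and for limma-voom. Replicate libraries differed beyond counting noise (chi-square per degree of freedom of 2.11 to 38.7 on genes with at least 20 reads), and none was a copy.

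Genes with a mean of at least 1 FPKM over the 6 libraries of a line were tested on log2(FPKM + 1) with limma 3.58.1 in R 4.3.3 (empirical Bayes, variance trend, two-sided), and fold changes on this scale understate those of low genes. P-values were adjusted by Benjamini-Hochberg over all tested genes, and for differences between lines over all genes and the 3 pairs. The test was run on simulated data first. Read numbers cover counting error only. GC content came from GENCODE v44, in which 57532 genes were found. Gene positions, used to find overlapping genes, were those deposited with the FPKM, and promoters with their coordinates came from RefSeq. Tables and figures used Python 3.11.15, pandas 2.3.3, numpy 2.4.6 and matplotlib 3.10.9.

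The 33 genes, the 81 other pathway genes and the tests were chosen with earlier results of these data known. Values in every library are given for SYK, the 3 largest rises and falls per line among called genes, the 4 largest called differences per pair of lines, and SREBF1, SREBF2, INSIG1, HMGCS1, SQLE, FASN, SCD, ABCA1 and ABCG1. Of the other pathway genes, the 2 largest called rises and falls per line are named. The same results were computed with a filter at 5 FPKM or none, a pseudocount of 0.1, equal library sums, quantile normalization, no variance trend, 1 fit of 18 libraries, limma-voom, removal of length and GC trends (lowess, span 0.3), a replicate block and leaving out each library.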

Additional observations from a re-analysis of the deposited data

Results flagged for a closer look

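The effect of SYK knockdown differed between lines for 12 results that were looked at again, the 4 largest tested differences of each pair of lines (limma, difference of the shSYK minus nc log2 fold changes). Between EBC-1 and HCC827 these were -1.39 for MVD, -1.26 for MSMO1, -1.18 for FADS2 and -1.14 for STARD4. Between EBC-1 and PC-9 they were -0.94 for FADS2, -0.89 for MVD, -0.88 for MSMO1 and -0.72 for STARD4. Between PC-9 and HCC827 they were -0.74 for LPIN1, -0.67 for SQLE, -0.59 for INSIG1 and -0.52 for FDPS. MVD, MSMO1, FADS2 and STARD4 appear in both comparisons with EBC-1, which share the EBC-1 libraries. STARD4 was under the filter of 1 FPKM in PC-9, with 12 to 29 reads per library, and its difference there was lost with limma-voom (adjusted p = 0.163). No group of 3 libraries was searched for single outlying libraries.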

How the results depend on the processing

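The called genes kept their side of the threshold in 235 of 280 alternative results in EBC-1 and in 271 of 286 in HCC827. The call of ELOVL6 in EBC-1 was lost with length and GC trends removed, where its log2 fold change was -0.0134 (adjusted p = 0.863, limma). The number higher in EBC-1 (4) became 2 without a filter, 2 with a filter at 5 FPKM, 7 with equal library sums and 2 with the replicate block, and the median there became -0.0743 with equal sums. In PC-9, 1 gene was lower with equal sums, 5 were higher and 1 lower in 1 fit of 18 libraries, and 2 were higher and 1 lower with trends removed. Over all PC-9 genes, these settings called 491 of 12089, 1511 of 12089 and 915 of 12040, against 253 of 12089 in the main fit. In HCC827, the number higher (15) became 21 with limma-voom, 18 with equal sums, 18 with quantile normalization and 17 with trends removed. Over all HCC827 genes, these settings called 3022, 2482 and 2312 of 11999 and 1675 of 11943 higher, against 2066 of 11999 in the main fit. The number lower there (3) became 1 in 1 fit of 18 libraries, and 2 under each of those 4 settings. Genes whose effect differed between PC-9 and HCC827 (5) became 9 with equal sums, 8 with quantile normalization, 8 with limma-voom and 9 with trends removed. The causes of these shifts were not tested.

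Leaving out each library in turn gave 2 to 5 genes higher and 10 to 15 lower in EBC-1, 0 to 1 higher and 0 to 1 lower in PC-9 and 15 to 18 higher and 2 to 4 lower in HCC827. The medians ranged from -0.253 to -0.1049 in EBC-1, from -0.0716 to 0.1014 in PC-9 and from 0.2379 to 0.3704 in HCC827. The numbers of differing effects ranged from 7 to 16 for EBC-1 and PC-9, from 11 to 15 for EBC-1 and HCC827 and from 3 to 11 for PC-9 and HCC827. Library numbers were not taken as pairs, since deviations of same-numbered libraries correlated between -0.219 and 0.325. Under the replicate block, 4 of the EBC-1 calls were lost.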
